A study of Mus musculus with 2 samples.

Results

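The genes of G2 phase, the mitotic spindle and cell division were followed in the livers of 2 newborn mice. They were taken as a list of 40 named genes whose products act between the end of DNA replication and the separation of daughter cells. The list was drawn up by role, with earlier results of these data known. All 40 were matched by Ensembl identifier among the 43346 Ensembl genes of the tables. Both pups were B6NCrl mice of postnatal day 0, an inbred C57BL/6N strain, and the labels name no engineered allele and no treatment. They were littermates from 1 dam, 1 whole liver was used from each, and sex was not recorded. Each library began with 10 ng of RNA above 200 nt and was assayed as total RNA-seq with ERCC spike-in RNAs added. The livers formed 1 group of 2 animals with no contrast between conditions, so levels are described and no test is defined. Whole liver at this age holds several cell types, and in such bulk RNA fewer cells of a type and less RNA per cell cannot be told apart.

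A cell that has copied its DNA enters mitosis when the kinase Cdk1, bound to cyclin A or cyclin B, becomes active. The chromosomes are then attached to the spindle at kinetochores, a checkpoint holds the cell until attachment is complete, and the anaphase-promoting complex marks cyclin B and securin for destruction. Transcripts of these genes rise in G2 and are low in resting cells. Their promoters are known for CCAAT boxes, which the factor NF-Y binds, and for a cell cycle genes homology region near the transcription start, which the MuvB complexes bind with B-Myb and Foxm1 in cycling cells. In the newborn liver, hepatoblast-derived hepatocytes and blood precursors, mainly erythroblasts, are both known to divide.

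The promoters are shown for 6 members because most windows of the set share the same letters around the start site. They come from RefSeq on GRCm38.p6 and run from 200 bases before to 30 bases after the annotated start, 230 bases in all, in the direction of transcription. Capitals mark CCAAT, which reads ATTGG on the other strand, and the homology form TTTGAA, which then reads TTCAAA. Ube2c (chr2:164769729-164769958, plus strand) and Top2a (chr11:99024160-99024389, minus strand) hold 5 CCAAT matches each in the stretch shown. Cdk1 (chr10:69352883-69353112, minus strand) and Ccnb2 (chr9:70421525-70421754, minus strand) hold 2 and 3 CCAAT matches and 2 TTTGAA matches each. Kif11 (chr19:37376182-37376411, plus strand) holds 1 of each, and Nuf2 (chr1:169531435-169531664, minus strand) is shown as a window with none.
Ube2c: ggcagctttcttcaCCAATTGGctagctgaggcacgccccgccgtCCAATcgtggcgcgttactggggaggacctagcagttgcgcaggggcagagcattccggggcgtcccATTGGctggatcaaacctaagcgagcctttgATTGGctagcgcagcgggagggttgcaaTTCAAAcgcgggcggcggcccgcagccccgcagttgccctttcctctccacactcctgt
Top2a: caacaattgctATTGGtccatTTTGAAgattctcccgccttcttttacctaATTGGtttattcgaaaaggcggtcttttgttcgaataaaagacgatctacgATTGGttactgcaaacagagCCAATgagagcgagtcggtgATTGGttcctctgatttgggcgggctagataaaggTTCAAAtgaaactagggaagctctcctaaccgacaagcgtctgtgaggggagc
Cdk1: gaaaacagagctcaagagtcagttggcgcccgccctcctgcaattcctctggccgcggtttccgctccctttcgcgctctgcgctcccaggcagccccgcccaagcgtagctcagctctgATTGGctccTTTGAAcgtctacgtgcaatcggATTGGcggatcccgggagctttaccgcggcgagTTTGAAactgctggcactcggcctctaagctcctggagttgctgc
Ccnb2: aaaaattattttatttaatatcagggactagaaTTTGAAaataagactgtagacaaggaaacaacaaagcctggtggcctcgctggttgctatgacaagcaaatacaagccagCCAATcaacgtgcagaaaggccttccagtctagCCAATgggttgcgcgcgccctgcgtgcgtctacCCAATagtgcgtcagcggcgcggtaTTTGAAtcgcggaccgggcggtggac
Kif11: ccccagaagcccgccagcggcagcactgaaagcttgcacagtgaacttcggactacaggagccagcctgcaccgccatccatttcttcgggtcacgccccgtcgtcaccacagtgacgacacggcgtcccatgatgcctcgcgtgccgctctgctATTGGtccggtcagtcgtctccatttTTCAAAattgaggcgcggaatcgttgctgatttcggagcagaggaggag
Nuf2: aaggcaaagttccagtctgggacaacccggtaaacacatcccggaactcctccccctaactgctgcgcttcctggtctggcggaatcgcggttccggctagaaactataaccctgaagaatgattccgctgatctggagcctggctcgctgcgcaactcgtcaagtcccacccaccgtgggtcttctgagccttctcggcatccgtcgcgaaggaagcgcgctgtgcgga

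The RefSeq table held 300-base windows, from 250 bases before to 50 after the start, for 32 of the 40 genes. There were 35 windows, since 3 genes (Ect2, Prc1 and Bub3) had a pair of start sites. The paired windows overlap, so the same matches were counted once per window, in the percents and in the match totals. Aurkb, Foxm1, Incenp, Spc24, Ccna2, Kif20a, Cdc25c and Tpx2 were not matched. The Kif2c window (chr4:117178723-117179022, minus strand) lies inside the gene, whose annotated upstream bound is 117182639. The Cdca8 window (chr4:124936868-124937167, minus strand) likewise lies inside its gene, with a bound at 124939311. The Kif4 window (chrX:100625815-100626114, plus strand) also lies inside its gene, which starts at 100625737. So does the second Bub3 window (chr7:131560244-131560543, plus strand), where the gene starts at 131560222. All of these windows were counted with the others. The letters searched on both strands were CCAAT for the box, and for the homology region its main form TTTGAA or its second form TTTAAA. The second form reads the same on both strands and was counted once, and overlapping matches were counted separately, as in the Ube2c window, where CCAATTGG is a match on each strand. CCAAT stood in 80% of the members' windows (25 genes), against 37.4% of all 32851 windows in the table and 37.9% of the 12057 windows of expressed genes (those with a mean TPM of at least 1 in these livers). TTTGAA stood in 77.1% of the members' windows (24 genes), against 17.9% of all windows and 12.5% of those of expressed genes. Either homology form stood in 85.7% (27 genes), against 27.6% and 20.2%.

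CCAAT together with either homology form was found in 74.3% of the members' windows, 10.7% of all windows and 7.87% of expressed genes' windows. The 38 S phase genes listed for comparison had CCAAT in 57.1% of 35 windows but TTTGAA in 11.4%. A list of 46 other mitotic genes had CCAAT in 71.4% and TTTGAA in 54.8% of 42 windows. The members' promoters thus stood above the expressed-gene share for all of these letters, and the S phase promoters for CCAAT and for the combined homology forms (25.7%), while their TTTGAA share was below it. The median GC content was 59.0% in the members' windows and 60.3% in those of expressed genes. At least 2 CCAAT matches occurred in 54.3% of the members' windows and 11.7% of all windows. A pair of CCAAT matches 26 to 36 bases apart occurred in 22.9% of the members' windows, 21.4% of other mitotic windows, 2.58% of all windows and 3.87% of expressed genes' windows. Counted per window, the 62 CCAAT matches had a median position 67.5 bases before the start, and the 44 homology matches a median 16 bases before it. Mad2l1, Nusap1 and Nuf2 held none of the letters in their windows. A match is a stretch of letters, and binding was not measured here.

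**Figure D1:**
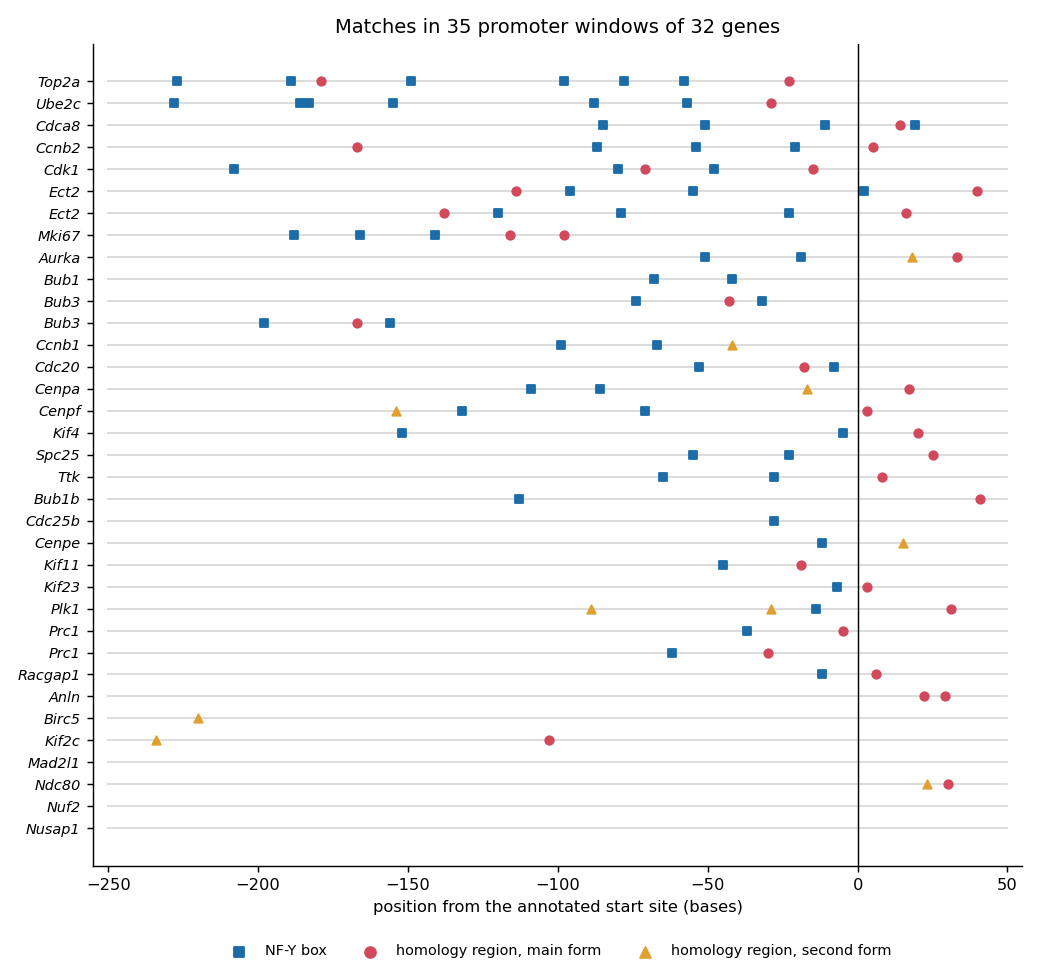
Position of each CCAAT match (NF-Y box, blue squares), TTTGAA match (red circles) and TTTAAA match (yellow triangles) in bases from the RefSeq start site, for 35 windows of 32 genes, ordered by the number of CCAAT matches. The homology matches have a median position of -16, and the CCAAT matches lie farther upstream, with a median of -67.5.

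Every one of the 40 genes was detected in both livers, at a TPM of 1 or more. TPM, the deposited transcript level, is corrected for transcript length and scaled to a fixed total per library. The same held for 28.5% of all Ensembl genes and 52.9% of the 21474 protein-coding genes. The median level of the members was 31.3 TPM in pup 1 and 26.7 TPM in pup 2, against 9.09 and 8.72 TPM for the 12711 expressed genes. In both livers 31 members reached 10 TPM, 11 reached 50 TPM and 5 reached 100 TPM, and 7 stayed below 10 TPM. Together they held 0.191% of TPM in pup 1 and 0.172% in pup 2, or 0.181% ± 0.0135 (SD, n = 2). Of expected counts, which weight long transcripts up, they held 0.299% ± 0.0203. Expected counts per member lay between 437 and 11387. The mean levels spanned 47.1-fold, from 4.84 TPM for Anln to 227.6 TPM for Ube2c. When the members were ordered by mean TPM, the livers' ranges overlapped for 29 of 39 neighbouring pairs, so these neighbours did not differ beyond the spread of the 2 animals. Of the 29 pairs, 21 had the same order within each liver and 8 turned. At the top, Ube2c, Birc5, Cdk1 and Ccnb2 followed each other without overlap, counting all transcripts. On coding transcripts alone Ccnb2 stood above Cdk1 in both livers. The SD was 8.45% of the mean for the median member and 18.4% at most.

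**Figure D2:**
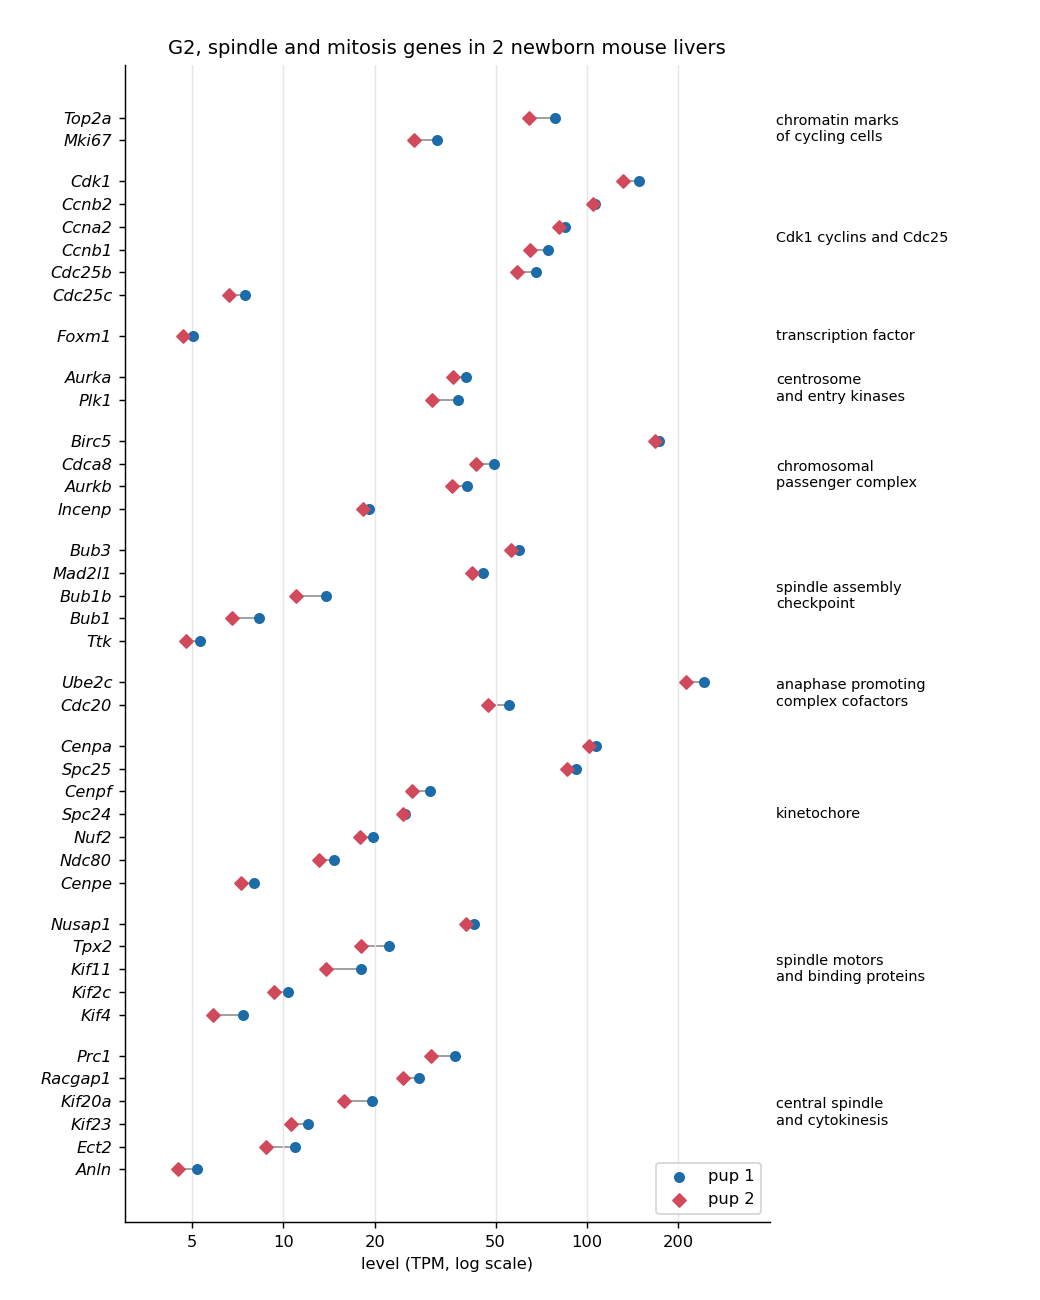
Level of each of the 40 genes in TPM on a log axis, grouped by role, with a circle for pup 1 and a diamond for pup 2 joined by a line. Levels run from 4.48 to 243.4 TPM, and the diamond lies to the left of the circle for every gene.

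The marks of cycling cells were both well above the median gene. Mki67 (chromosome 7, 135689784 to 135716361, GRCm38), which coats mitotic chromosomes and gives the Ki-67 antigen, reached 32.1 TPM in pup 1 and 26.9 in pup 2. Top2a (chromosome 11, 98992943 to 99024189), the topoisomerase that untangles sister DNA, was at 78.7 and 64.3 TPM. Pup 1 was higher for both genes. Top2b, the related enzyme that resting cells also use, was at 10.6 and 10.5 TPM, so the level of Top2a exceeded that of Top2b by 2.64 ± 0.19 on the log2(TPM + 1) scale (SD, n = 2). This comparison covers all transcripts, and the coding transcripts of Top2a alone were at 41.3 and 31.8 TPM.

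Of the Cdk1 engine, the kinase itself had the highest TPM over all transcripts, while on coding transcripts alone Ccnb2 (106.7 and 105.0 TPM) stood above Cdk1 (90.6 and 85.1 TPM) in both livers. Cdk1 (chromosome 10, 69335146 to 69352938) had 148.9 TPM in pup 1 and 131.9 TPM in pup 2, above its relative Cdk2, the S phase kinase, by 2.34 ± 0.0053 on the log2(TPM + 1) scale. Ccnb2, a cyclin B, was at 106.7 and 105.0 TPM, which nearly coincided. Ccna2, the cyclin A of body cells, was at 84.4 and 81.1 TPM. Ccnb1 (chromosome 13, 100778650 to 100786570), the main cyclin B, was at 74.7 and 65.0 TPM, so Ccnb2 exceeded Ccnb1 in each liver. The germ cell cyclins were close to absent. Ccna1 had 0 and 2 expected counts and Ccnb3 had 1 in each liver. The Cdc25 phosphatases, which remove the inhibitory phosphates from Cdk1, differed widely among themselves. Cdc25b, which acts at entry into mitosis, reached 68.2 TPM in pup 1 and 58.9 in pup 2. Cdc25c was at 7.45 and 6.62 TPM, level with Cdc25a at 6.39 and 6.66 TPM. The order of the latter pair turned between the livers.

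Foxm1, the transcription factor that drives many G2 genes, was among the lowest members at 5.05 TPM in pup 1 and 4.65 in pup 2. The entry kinases were close to each other in level. Aurka, which matures the centrosomes, had 39.9 TPM in pup 1 and 36.1 TPM in pup 2. Plk1, the polo kinase of mitotic entry and exit, was at 37.7 and 30.8 TPM. Plk1 stood above Plk2 (7.29 and 8.16 TPM) and Plk3 (4.25 and 4.16 TPM), which are known as stress-responsive relatives, and Plk5 was at 0.07 and 0.18 TPM. Aurkc, the germ cell Aurora kinase, is listed at 0 in both livers.

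The chromosomal passenger complex corrects faulty spindle attachments and later directs cytokinesis, and its 4 genes were unequal in level. Birc5 (chromosome 11, 117849251 to 117855743), which encodes survivin, reached 172.6 TPM in pup 1 and 168.1 in pup 2. Cdca8, which encodes borealin, was at 49.3 and 43.1 TPM. Aurkb, the kinase of the complex, was at 40.3 and 35.9 TPM. The scaffold Incenp was lowest at 19.1 and 18.3 TPM, so the level of Birc5 was 9.03-fold that of Incenp in pup 1 and 9.18-fold in pup 2.

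The spindle assembly checkpoint showed a wide range. Bub3, which also serves outside the checkpoint, had 59.7 TPM in pup 1 and 56.3 TPM in pup 2. Mad2l1, the Mad2 protein that binds Cdc20, was at 45.57 and 41.95 TPM. The other members were lower. Bub1b, which encodes BubR1, was at 13.8 and 11.0 TPM. Bub1, a kinase at the kinetochore, was at 8.33 and 6.76 TPM, and Ttk, the Mps1 kinase that starts the signal, was at 5.30 and 4.76 TPM. The target of the checkpoint and its partner enzyme were higher than any checkpoint kinase. Cdc20, the activator of the anaphase-promoting complex, reached 55.5 TPM in pup 1 and 47.1 in pup 2. Ube2c (chromosome 2, 164769898 to 164778822), the ubiquitin-conjugating enzyme of that complex, was the highest member at 243.4 and 211.9 TPM.

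Of the kinetochore genes, the centromeric histone Cenpa led at 107.2 TPM in pup 1 and 101.7 in pup 2. On coding transcripts alone Spc25 led in both livers, at 82.4 and 79.8 TPM against 55.3 and 51.1 TPM for Cenpa. Cenpf, a large protein of the outer kinetochore, was at 30.4 and 26.5 TPM, and the kinesin Cenpe at 7.97 and 7.25 TPM. The NDC80 complex, which holds the microtubule, contains Ndc80, Nuf2, Spc24 and Spc25 in equal numbers as a protein complex, but the RNAs were not equal. Spc25 was at 91.8 and 85.8 TPM. Spc24 was at 25.2 and 24.7 TPM, Nuf2 at 19.8 and 17.9 TPM and Ndc80 at 14.6 and 13.1 TPM. The level of Spc25 was 6.28-fold that of Ndc80 in pup 1 and 6.56-fold in pup 2, with the same order of the 4 genes in both animals.

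Spindle proteins were led by Nusap1, which bundles microtubules, at 42.5 TPM in pup 1 and 39.9 in pup 2. Tpx2, the activator of Aurka on the spindle, was at 22.3 and 18.0 TPM. Kif11 (chromosome 19, 37376403 to 37421859), the Eg5 motor that pushes the spindle poles apart, was at 18.0 and 13.8 TPM. Kif2c, a kinesin that shortens microtubules at centromeres, was at 10.3 and 9.33 TPM, and the chromokinesin Kif4 at 7.38 and 5.88 TPM. In each of these genes pup 1 had the higher TPM.

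Genes of the central spindle and cytokinesis were mostly of moderate level. Prc1, which crosslinks the antiparallel microtubules between the separating chromosomes, had 36.7 TPM in pup 1 and 30.6 TPM in pup 2. Racgap1 and Kif23 make up the centralspindlin complex, and were at 27.9 and 24.8 TPM and at 12.1 and 10.6 TPM, a ratio of levels of 2.31 in pup 1 and 2.34 in pup 2. Kif20a, a kinesin of the late spindle, was at 19.6 and 15.8 TPM. Ect2, the exchange factor that turns on RhoA at the division plane, was at 11.0 and 8.77 TPM. Anln, the anillin scaffold of the contractile ring, was at 5.19 and 4.48 TPM, level with Foxm1, which was the lower of the pair in pup 1. Pup 1 had the higher TPM for all 6 genes of this group.

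Between the littermates, the members shared a direction. The log2 ratio of pup 2 to pup 1, computed on TPM + 1, was below 0 for all 40 genes on the TPM scale, and for 36 after TMM scaling, where Ccnb2, Spc24, Birc5 and Incenp lay between 0.0078 and 0.045. With DESeq2 size factors Ccnb2, Spc24 and Birc5 lay above 0, and on the CPM and FPKM scales Ccnb2 and Spc24. On the TPM scale pup 2 was lower for 63.0% of the 12711 expressed genes (mean TPM of at least 1). For the 7878 genes within the members' own range of mean TPM this share was 63.7%. The share of all genes lower was not taken on the other scales. The median log2 ratio of the members was -0.17, against -0.051 for all 12711 genes. On the log2 scale the members' median was -0.092 after TMM scaling, beside 0.0058 for all genes, and -0.36 with ERCC spike-ins, beside -0.25. The median member was 11.3% lower in TPM in pup 2. This compares 2 animals with 1 library each and has no replicate check. The members' log2 ratios had an interquartile width of 0.14, against 0.20 for genes at similar level. The SDs were 0.087 and 0.28. Of the 40 members, 37 lay below the median of genes at similar level and 23 below their lower quartile of -0.15.

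The authors' credible intervals of TPM, which cover counting and read assignment in 1 library, were apart and lower in pup 2 for 22 members (55%). Among all 12711 genes this share was 13.8%, and among genes in the members' range of TPM it was 16.8%. With a difference of at least 1.2-fold required as well, 10 members remained, against 6.55% of all genes and 6.91% of genes at similar level. No member was higher in pup 2 with intervals apart, against 6.27% of all genes and 6.75% of genes at similar level. No member was 2-fold apart, as 0.629% of all genes were. The differences were therefore small and shared. The largest on the TPM scale was in Kif11, which was lower in pup 2 by 23.1% in TPM (log2 ratio -0.36), followed by Bub1b (-0.30) and Tpx2 (-0.29). After TMM scaling of counts Kif11 (-0.30) was followed by Top2a (-0.29) and Kif4 (-0.29), and Tpx2 was at -0.11. On coding transcripts Top2a (-0.37) passed Kif11 (-0.36), and Tpx2 was at -0.13. The smallest were in Ccnb2 (-0.024), Spc24 (-0.028) and Birc5 (-0.038). The latter 3 had overlapping intervals.

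**Figure D3:**
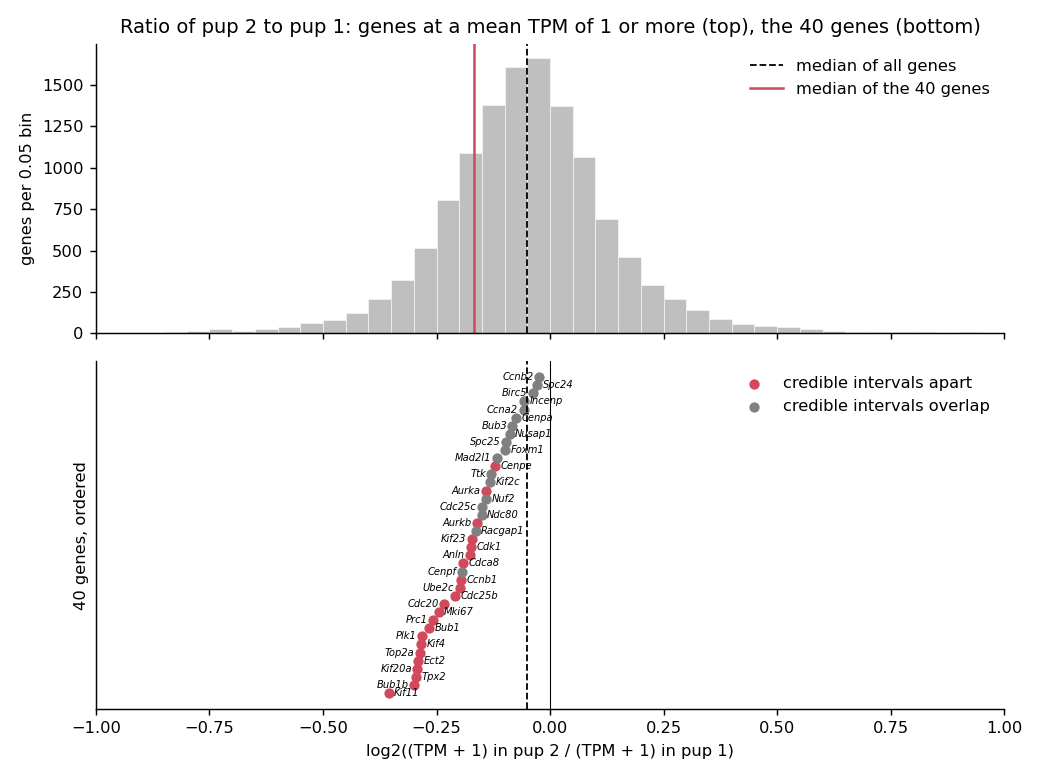
Upper panel, histogram of the log2 ratio of TPM + 1, pup 2 over pup 1, in bins of 0.05 for genes with a mean TPM of at least 1; lower panel, the same ratio for each of the 40 genes in order, in red where the authors' credible intervals were apart. The members run from -0.36 to -0.024, with a median of -0.17 against -0.051 for all genes (dashed line).

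On the TPM scale every role had a median below 0, while the size differed among them. Both chromatin marks had intervals apart, with a median log2 ratio of -0.27. The 5 spindle motors and binding proteins had a median of -0.28, with Kif11, Tpx2 and Kif4 apart, but this median was -0.14 on the CPM scale, -0.11 after TMM scaling and -0.13 on coding transcripts. The 6 central spindle and cytokinesis genes had a median of -0.22, and all but Racgap1 were apart. Both anaphase-promoting complex cofactors (median -0.22) and both entry kinases (-0.21) were apart as well. Of the 6 genes of the Cdk1 engine (-0.16), Cdk1, Ccnb1 and Cdc25b were apart. Of the 5 checkpoint genes (-0.13), Bub1 and Bub1b were apart, and of the 4 passenger genes (-0.11), Aurkb and Cdca8. The 7 kinetochore genes had a median of -0.12, and only Cenpe of them was apart. Foxm1, at -0.099, had overlapping intervals. After TMM scaling the medians of the Cdk1 engine (-0.066), the passenger genes (-0.043), the kinetochore genes (-0.066) and the anaphase-promoting complex cofactors (-0.13) were also over 1.5 times smaller, as was the ratio of Foxm1 (-0.048), and spike-in scaling made each role's median larger in size, between -0.52 and -0.31. The difference between roles was not tested.

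Transcript length moved with the size of the ratio. Over the 40 members Spearman's rho between the log2 ratio and transcript length was -0.49, and over 7495 protein-coding genes in the same range of TPM it was -0.27. These are correlations across genes of the same pair of libraries, given as a description. Members under 2000 nt had a median log2 ratio of -0.14 (13 genes), those of 2000 to 3000 nt -0.15 (12 genes) and those from 3000 nt -0.27 (15 genes). Protein-coding genes at similar level had medians of -0.018, -0.058 and -0.11 in the same 3 classes. The classes are broad, and the part of length in the members' ratios was not tested.

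**Figure D4:**
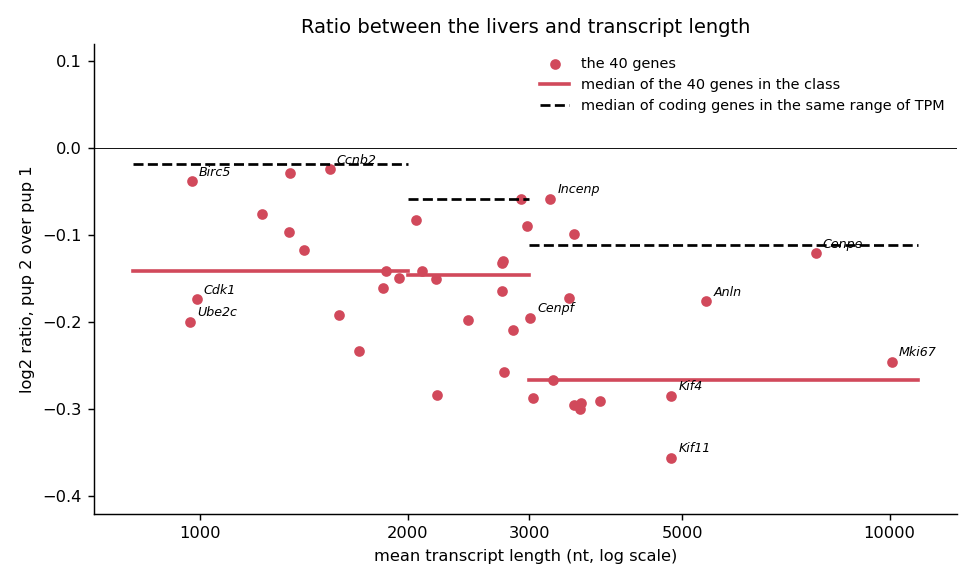
Log2 ratio of TPM + 1, pup 2 over pup 1, against mean transcript length in nt on a log axis for the 40 genes, with the members' median (red line) and the median of protein-coding genes in the same range of TPM (dashed line) in each length class. The members' medians are -0.14, -0.15 and -0.27, below the dashed lines at -0.018, -0.058 and -0.11.

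Other cell cycle genes were compared by lists drawn up from their known roles. Among all expressed genes 63.0% were lower in pup 2 and 13.8% were apart lower, with a median log2 ratio of -0.051. The 38 S phase genes, which copy DNA and supply nucleotides, had a median log2 ratio of -0.20, with 36 lower in pup 2 and 22 apart. Their highest genes were Rrm2, a ribonucleotide reductase subunit, at 242.0 and 204.6 TPM and Pcna, the polymerase clamp, at 137.9 and 128.9 TPM. The 46 other mitotic genes had a median of -0.14, with 42 lower and 12 apart. They were led by the Cdk1-binding proteins Cks2 (245.2 and 255.9 TPM) and Cks1b (123.7 and 113.6 TPM). Cks2 was higher in pup 2. The shift was thus present in both cell cycle lists, and 4 other mitotic genes went the other way.

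Of 30 other kinetochore and centromere genes, 22 were lower in pup 2, with a median log2 ratio of -0.086, 5 apart lower and 1 apart higher. Zwint was highest at 123.0 and 116.3 TPM, then Cenpx at 71.1 and 76.7 TPM. Of 13 condensin and cohesin genes, which fold chromosomes and hold sister chromatids together, 12 were lower (median -0.13), with 4 apart. Their highest genes were Smc2 at 94.3 and 89.0 TPM and Smc4 at 75.5 and 76.1 TPM. Of 16 genes of the anaphase-promoting complex core and its helpers, 11 were lower (median -0.084), with 4 apart. Ube2s was at 122.3 and 123.9 TPM and Anapc13 at 108.0 and 109.2 TPM. The medians of these lists lay nearer to that of all genes than the members' median did. Among all expressed genes 63.0% were lower, 13.8% were apart lower and 6.27% apart higher.

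The MuvB, DREAM and E2F list holds the regulators that switch cell cycle promoters on and off. Of its 19 genes, 11 were lower in pup 2, with a median of -0.029. Among all expressed genes 63.0% were lower, 13.8% were apart lower and 6.27% apart higher, with a median of -0.051. Rbbp4 was at 145.1 and 140.1 TPM and Tfdp2 at 53.4 and 58.9 TPM. Among the cell cycle brakes, 8 of the 16 expressed genes were lower and 8 higher (median -0.022), with 4 apart lower and 2 apart higher. Cdkn2d, an inhibitor of Cdk4 and Cdk6, was at 71.8 and 73.6 TPM and Btg2 at 54.96 and 52.3 TPM. Cdkn2b was at 0.02 and 0.04 TPM, and Cdkn2a, which encodes p16 and Arf, is listed at 0. Cdkn1a, which encodes p21 and was chosen after its values were seen, reached 60.8 TPM in pup 1 and 43.6 in pup 2, and so was lower in the same animal as the members. Cdkn1c and Gadd45a, chosen in the same way, were higher in pup 2, at 23.2 and 32.5 TPM and at 43.5 and 56.5 TPM.

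**Figure D5:**
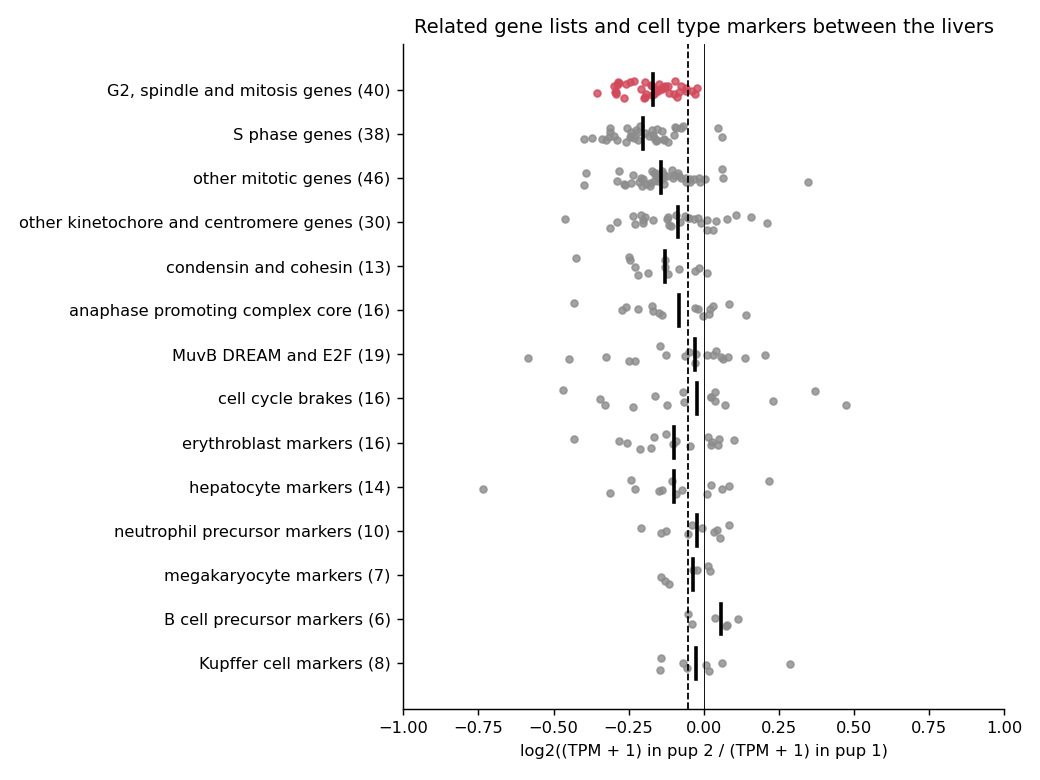
Log2 ratio of TPM + 1, pup 2 over pup 1, for each expressed gene (points) with the median of each list (black bar), the median of all genes (dashed line) and the number of genes in parentheses. The 40 genes and the 38 S phase genes have medians of -0.17 and -0.20, and the brakes and the MuvB, DREAM and E2F list have medians of -0.022 and -0.029.

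Markers of the cell types of the newborn liver were set beside the members. Of 16 erythroblast markers matched, 10 were lower and 6 higher in pup 2 (median log2 ratio -0.098), with 7 apart lower and 5 apart higher. Among all expressed genes 63.0% were lower, 13.8% were apart lower and 6.27% apart higher, with a median of -0.051. The erythroblast markers summed to 143622 TPM in pup 1 and 147904 TPM in pup 2, with the 4 globins slightly higher on the TPM scale. Of those lower in pup 2, Klf1, an erythroid transcription factor, was at 130.5 and 115.3 TPM. Gata1 was at 37.9 and 34.6 TPM and the transferrin receptor Tfrc at 90.17 and 73.97 TPM. These genes are examples from the 10 lower markers only, and the other 6 erythroblast markers were higher, 5 of them apart. Of 14 hepatocyte markers, 9 were lower and 5 higher (median -0.099), with 9 apart lower and 4 apart higher. For both cell types the share of markers lower in pup 2 was near that of all expressed genes. The hepatocyte markers summed to 111480 and 105019 TPM. The summed levels of 10 neutrophil precursor markers were 9447 and 9694 TPM, those of 7 megakaryocyte markers 947.5 and 946.1 TPM and those of 8 Kupffer cell markers 504.2 and 499.1 TPM. The 8 B cell precursor markers summed to 147.4 and 152.8 TPM. Markers of foreign tissue were higher in pup 2. Those of striated muscle summed to 54.9 and 835.0 TPM, with 11 of 12 expressed and all 11 at least 2-fold higher, and those of pancreas to 12.7 and 163.6 TPM, with 11 of 12 at least 2-fold higher. No muscle marker was at 0, and the pancreas markers Try4, Try5, Ins2 and Cel were at 0 in pup 1. Their part in the members' ratios was not tested.

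The transcripts behind the members were alike in the livers. Of the 40 genes, 12 had 1 annotated transcript and 28 had several, 185 transcripts in all. The same transcript had the largest share of the gene's TPM in both livers for 38 genes, all but Cdc25b and Prc1. With 1 annotated transcript this is fixed in advance, and among the 28 genes with several it held for 26. The share over all genes was not taken. Every leading transcript was protein-coding. For 23 genes the leader held over 90% in both livers, 11 of them among the 28 with several transcripts. Protein-coding transcripts held 98.1% of the gene's TPM in pup 1 and 97.9% in pup 2 for the median member.

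For 5 members under 80% of the gene's TPM was coding in both livers. In Top2a the coding share was 52.5% in pup 1 and 49.4% in pup 2, and the 632-nt processed transcript Top2a-202 held 33.3% and 31.0%. Counted as reads, the coding Top2a-201 held 89.4% and 88.3% of the gene, because TPM weights a short transcript up. In Cenpa the coding share was 51.5% and 50.2%, and the transcript Cenpa-202, annotated as a target of nonsense-mediated decay, held 33.2% and 33.4%. In Cdk1 it was 60.8% and 64.5%, with the retained-intron transcript Cdk1-204 at 24.2% and 21.3%. Cenpf (58.0% and 56.9%) was led by the 3001-nt Cenpf-203, at 45.5% and 45.1%, while the 11130-nt Cenpf-204 held 12.4% and 11.8%. Counted as reads, Cenpf-204 held 46.5% and 45.4% of Cenpf and Cenpf-203 held 44.8% and 45.6%, so the lead passed from Cenpf-204 in pup 1 to Cenpf-203 in pup 2. Foxm1 was at 76.1% in both. Restricted to coding transcripts, the levels of Top2a were 41.3 and 31.8 TPM. All 40 members were lower in pup 2 on that measure as well, with a median log2 ratio of -0.15. The share and the median of all genes were not taken on it.

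A transcript's share of its gene moved by over 10 percentage points between the livers in 4 members. Tpx2-202 held 45.5% of Tpx2 in pup 1 and 62.8% in pup 2. Racgap1-201 held 71.5% and 86.2% of Racgap1. Kif20a-202, which differs by 2 nt in length from Kif20a-201, held 68.3% and 57.1% of Kif20a. In Prc1 the 3008-nt transcript held 15.3% and 27.7%, and the lead passed from the 2912-nt transcript (31.9% and 26.6%) to the 3026-nt transcript (30.8% and 29.2%). Such shares are estimated by dividing reads among near-identical transcripts.

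Exons of 13 members overlap another annotated gene, and the sources used here do not state whether counting used strand, so these levels are less certain. Ube2c overlaps Tnnc2 on the opposite strand, a muscle troponin gene that had 5.70 TPM in pup 1 and 110.6 TPM in pup 2, while Ube2c was lower in pup 2. Cdc20 overlaps Elovl1 (mean 43.8 TPM), Kif4 overlaps Pdzd11 (35.1 TPM), Ccna2 overlaps Exosc9 (20.9 TPM), Kif20a overlaps Cdc23 (15.6 TPM) and Nusap1 overlaps Oip5 (13.4 TPM). The partners of the other members were at a mean of 3.07 TPM or less or had no value. Leaving out all 13, the remaining 27 members were lower in pup 2 without exception on the TPM scale, with a median log2 ratio of -0.15. On that scale 63.0% of all expressed genes were lower, with a median of -0.051. Expected counts were whole numbers within 0.005 in both livers for 30 members, so reads shared with other genes bore on the other 10.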

How the data were processed

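RNA from 2 newborn mouse livers was analysed from the deposited gene and transcript tables. Per the file headers they follow the layout of RSEM. Notes beside the tables name mm10 and GENCODE M4, and the tools that aligned and counted the reads are not given in the sources used. The authors deposited expected counts, which are estimates of the reads of each gene (totals 42124582 in pup 1 and 41443673 in pup 2). TPM values were deposited by the authors, scaled over all 69691 rows, with credible bounds whose level is not given. FPKM values deposited by the authors served as an alternative. The percent of a gene's TPM held by each transcript was also deposited by the authors. Symbols, biotypes, exon overlaps and coordinates (GRCm38, counted from 1) came from GENCODE M21, and promoter windows from RefSeq on GRCm38.p6.

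The members and lists were chosen with earlier results of these data known. Ratios were computed as log2((TPM + 1) in pup 2 / (TPM + 1) in pup 1) for genes whose mean TPM was at least 1, a scale that understates changes of low genes. With 1 group no test was made. A count of 0 allows up to 3 counts (0.0712 CPM in pup 1, 0.0724 in pup 2), which covers counting error only. Named genes were all members, the 2 highest genes of each related list, genes 2-fold apart and up to 3 genes below 1 TPM per list; marker genes were named as examples. Alternatives used edgeR 4.0.16 (TMM) and DESeq2 1.42.0 (size factors) in R 4.3.3, on expected counts rounded to whole numbers, and ERCC counts (163 and 190). Other steps used Python 3.11.15, pandas 2.3.3, numpy 2.4.6 and matplotlib 3.10.9. The ratio step was tested on simulated data.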

Additional observations from a re-analysis of the deposited data

How the results depend on the processing

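On the ratio between the livers, the members' median stayed between -0.17 and -0.092 on the log2 scale under every alternative other than spike-in scaling, and its distance to the median of all genes lay between -0.14 and -0.098 under each setting that gave both, spike-ins included. ERCC scaling, which rests on 163 and 190 reads, gave -0.36, and moved the median of all genes to -0.25. Members lower in pup 2 numbered 36 (TMM), 37 (DESeq2 size factors), 38 (CPM, FPKM) and 40 in the other settings that kept all members; the settings with coding transcripts only (also used for single roles) and without overlapping exons were chosen after seeing the data. Of 360 values of single members over 9 alternatives, 349 were below 0. Part of this count was fixed in advance. Dropping the filter on mean TPM repeats the main values, and a pseudocount of 0.1 cannot change a sign. The share of all genes lower was taken on the TPM scale only. Requiring at least a 1.2-fold difference as well left 10 members with intervals apart, against 6.55% of all genes and 6.91% at similar level. The median level was 24.7 on the FPKM scale. The members' share was 0.299% of expected counts and 0.200% of the TPM of protein-coding genes. With 1 liver left out, the detected members stayed at 40, the median level lay between 26.7 and 31.3 TPM and the share between 0.172% and 0.191%; no ratio can then be formed. No paired analysis was possible because the labels give 1 group. Depth did not limit detection of any member, with at least 437 counts each, but 2 animals limit every statement about spread.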
